A study of Mus musculus with 6 samples.

Results

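The transcripts described here are those of 36 mouse lysosome genes: 10 for cathepsins and other proteases, 7 for glycosidases, 5 for lipid handling, 6 for membrane proteins, 6 for subunits of the vacuolar proton pump (V-ATPase) and 2 others, progranulin (Grn) and the transcription factor Tfeb. They were chosen by name from the annotation, with earlier results of these data known. All 36 were found among the 49328 genes in the deposited table. They were measured by RNA sequencing in cultured bone marrow mesenchymal stromal cells (MSCs) from CB6F1 mice, an F1 hybrid strain, with aGVHD, acute graft-versus-host disease, a complication of transplantation caused by immune cells of the donor. The treated cells received in culture a compound labelled only R, at 0.5 um as the labels write the unit, and the control cells its vehicle, DMSO. Each group had 3 libraries, and both groups share the strain, the disease and the culture medium. The sources used here do not give the age and sex of the mice, the donor strain, the length of the treatment, or whether libraries came from separate animals.

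The lysosome is the acidic compartment in which cells break down proteins, glycans and lipids. The V-ATPase pumps protons into it, the cathepsins and glycosidases work at the resulting low pH, and heavily glycosylated membrane proteins shield the limiting membrane. In phagocytes the same enzymes cut ingested proteins into the peptides that MHC class II molecules present, and TFEB with its relatives switches on many of these genes together.

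Expression is given as FPKM, a read density scaled by gene length and library depth, as the authors deposited it, so that levels can be compared between genes. A gene was tested if it reached 1 FPKM in at least 3 of the 6 libraries, which 11862 genes did, among them all 36 lysosome genes. The test was limma's moderated test on log2(FPKM + 1), adjusted by the Benjamini-Hochberg method over the 11862 genes, with a threshold of 0.05. Each log2 change is R minus vehicle on that scale. The estimated depth was 1.707e+07 to 2.175e+07 reads a library, which puts at least 716 reads behind the lowest value of any of the 36 genes. The p-values measure the spread between these 3 and 3 libraries, which may be technical.

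Macrophage transcripts were abundant in the cultures labelled MSC. All 18 listed macrophage markers were high enough to be tested, 4 of them (Itgam, Fcgr1, Msr1 and Aif1) were lower in R and 0 higher, against 4.43% lower and 2.39% higher of all tested genes. Their summed level reached 16600, 14700 and 13400 FPKM in R replicates 1, 2 and 3 and 21800, 18200 and 16300 FPKM in vehicle replicates 1, 2 and 3. Of 14 stromal markers 9 were tested and 0 called (3 at an unadjusted p under 0.05 in limma), with 5 negative and 4 positive log2 changes and a median of -0.22. The values ran from -1.31 for the chemokine Cxcl12 (14.1 to 64.1 FPKM in R libraries, 34.8 to 168 FPKM in vehicle libraries) to 1.19 for the collagen chain Col1a1, which stood at 523, 327 and 588 FPKM in R libraries and 127, 252 and 263 FPKM in vehicle libraries (adjusted p = 0.079 in limma). The 3 at an unadjusted p under 0.05 in limma were Col1a1, Pdgfrb (log2 change 0.65) and Prrx1 (log2 change 0.53). For these 3 all R libraries lay above all vehicle libraries, against 13.9% of all tested genes. For 0 of the 9 they lay below, against 15.5%. The summed stromal level was 888, 646 and 1060 FPKM in R replicates 1, 2 and 3. In vehicle replicates 1, 2 and 3 it was 361, 728 and 640 FPKM. Lepr, Thy1, Nt5e, Dcn and Lum were too low to be tested. Of 7 neutrophil markers 2 were tested, and neither passed the threshold. These were Csf3r, at 5.27 to 13 FPKM over the 6 libraries, and S100a8, at 0.558 to 1.33 FPKM. S100a9, Mpo and Elane were at 0 in each library. Of 8 T and NK cell markers 3 were tested, of which 1, Nkg7, was lower in R and 0 higher. Nkg7 had 0 to 0.243 FPKM in R libraries and 1.48 to 3.01 FPKM in vehicle libraries (log2 change -1.47, adjusted p = 0.0079 in limma). It reached 1 FPKM in vehicle libraries only. Trbc2 and Cd4 had log2 changes of -1.02 and 0.64 and were not called. The summed level of the 8 markers was 2.37 to 6.97 FPKM in R libraries and 6.25 to 9.72 FPKM in vehicle libraries. Since the samples are bulk cultures, fewer cells of a type cannot be told apart from less RNA per cell. Vehicle replicate 1 stood somewhat apart, with the highest macrophage sum, the lowest stromal sum (361 FPKM, against 640 and 728 FPKM in the other vehicle libraries) and the highest vehicle value of 29 of the 36 lysosome genes. R replicate 1 had the highest R value of 24 of them.

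The lysosome genes stood at high and mostly similar levels in both groups. Together they made up 3.46% to 4.27% of all FPKM in R libraries and 4.13% to 4.73% in vehicle libraries. Their median level was 96.7 FPKM in R and 108 FPKM in vehicle, against 7.56 FPKM in R and 7.7 FPKM in vehicle for all tested genes. Psap, Ctsd and Ctsb exceeded 1000 FPKM in both groups and held 51.7% to 53.6% of the summed lysosome level in R and 50.5% to 52.4% in vehicle. A total of 18 genes exceeded 100 FPKM in both groups, and 4 (Tfeb, Mcoln1, Atp6v1h and Cln3) stayed under 20 FPKM in both.

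**Figure D1:**
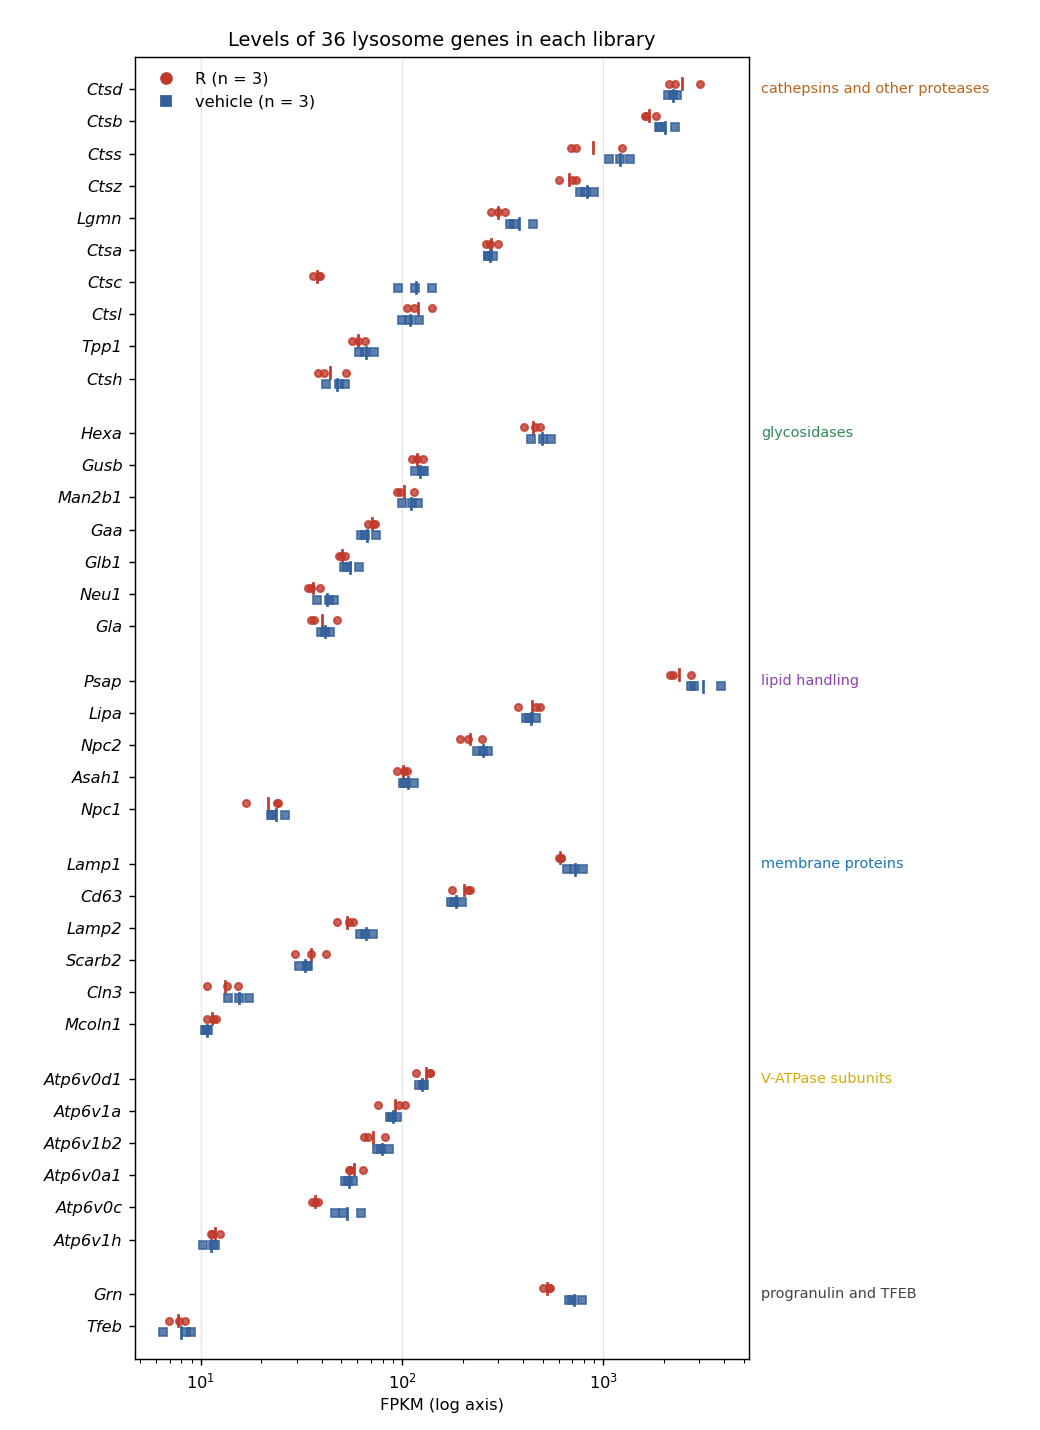
FPKM of the 36 lysosome genes on a log axis, by class, with R libraries as red circles above vehicle libraries as blue squares and the group means as vertical ticks (n = 3 each). For most genes the groups overlap; Ctsc is the gene with the widest gap, at 36 to 39.1 FPKM in R libraries and 95.2 to 141 FPKM in vehicle libraries.

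One gene of the 36 passed the threshold: Ctsc, which was lower in R. A share of 2.78% of the lysosome genes was thus called, against 6.82% of all tested genes. None was higher in R by this test in limma, against 2.39% of all tested genes, and 0 at an unadjusted p under 0.05, against 11.4%. In all, 5 were lower at an unadjusted p under 0.05, a share of 13.9%, against 12.6% of all tested genes. The log2 change was negative in 24 of the 36, or 66.7%, against 50.7% of all tested genes, and its median was -0.12, against -0.00 for all tested genes. All 3 R libraries lay below all 3 vehicle libraries for 8 genes, a share of 22.2% against a background of 15.5%, and above them for 0, against a background of 13.9%. These 8 were Ctsc, Ctsb, Ctsz, Lgmn, Lamp1, Lamp2, Atp6v0c and Grn. The 95% interval of the log2 change, from limma's standard error and not adjusted over genes, lay within a 2-fold change in either direction for 34 genes and within a 1.5-fold change for 30. The exceptions to the 2-fold bound were Ctsc and Ctss. The median of the 36 log2 changes was -0.05 without vehicle replicate 1 and -0.19 without R replicate 1.

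**Figure D2:**
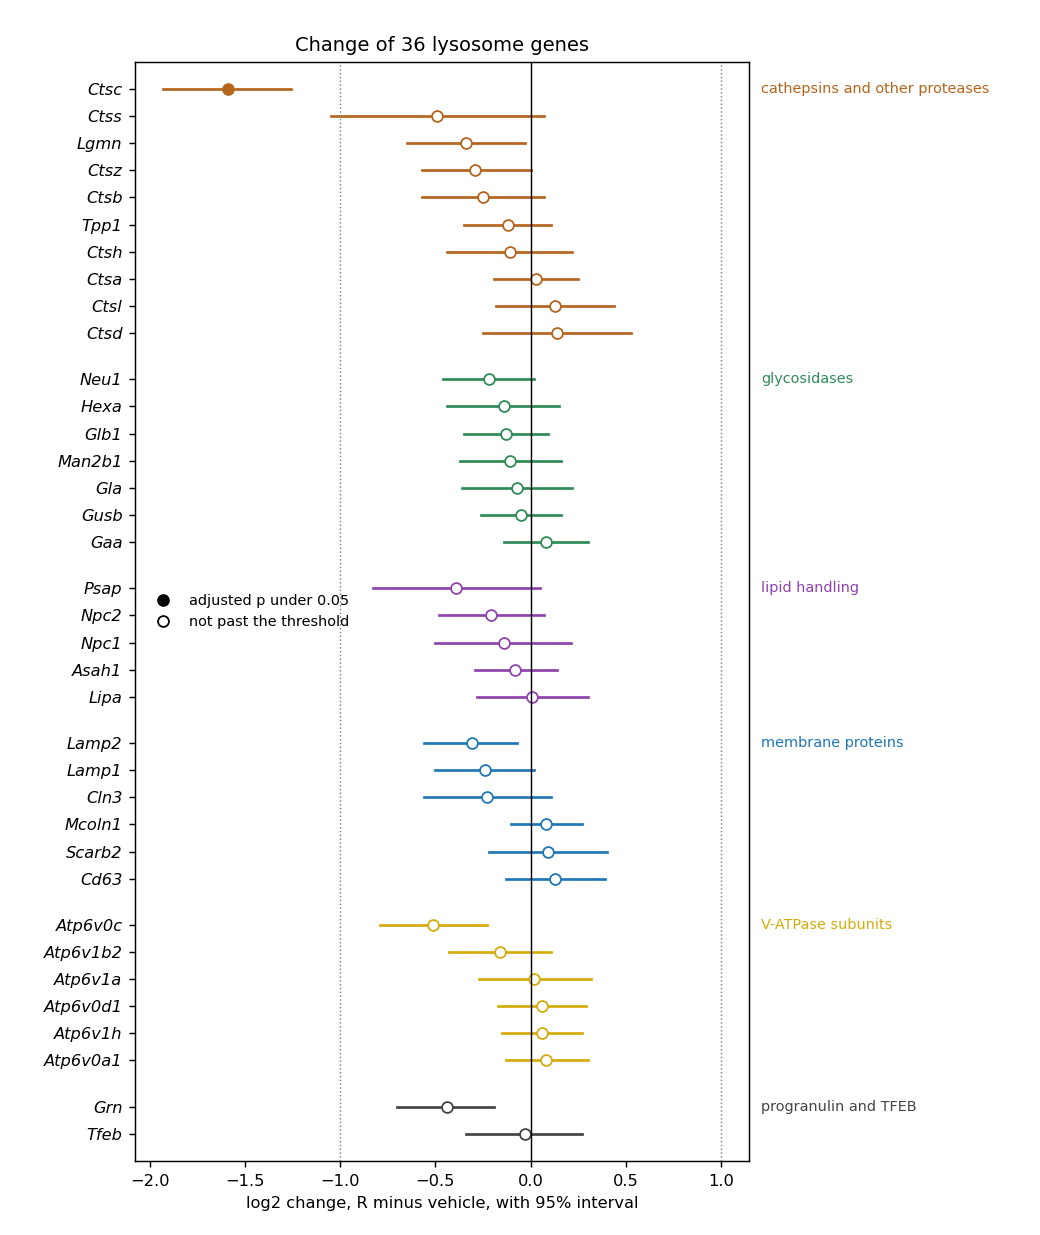
The log2 change (R minus vehicle) of each of the 36 genes with its 95% interval, by class. Ctsc, the filled point, passed the adjusted threshold and lies at -1.59; dotted lines mark a 2-fold change.

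Ctsc encodes cathepsin C (dipeptidyl peptidase 1), which removes dipeptides from the ends of proteins and activates the serine proteases of leukocyte granules. It had 38.5, 39.1 and 36 FPKM in R replicates 1, 2 and 3 and 141, 117 and 95.2 FPKM in vehicle replicates 1, 2 and 3. The R libraries were nearly level with each other, and the highest of them lay well below the lowest vehicle library. The group means were 37.9 ± 1.65 FPKM in R and 118 ± 23 FPKM in vehicle (SD, n = 3 each). The log2 change was -1.59 (SE 0.14, 95% interval -1.93 to -1.26; limma, adjusted p = 0.0013), a level 0.33 times that of vehicle. It was called whichever library was left out. Ranked by FPKM among the tested genes, Ctsc stood between place 302 and place 1462 over the 6 libraries.

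Of the 18 macrophage markers, a cell type that expresses Ctsc, 16 had a negative log2 change, against 50.7% of all tested genes, with a median of -0.44. For 12 of the 18 all R libraries lay below all vehicle libraries, against 15.5% of all tested genes. The markers ranged from -2.47 to 0.88, and some fell about as far as Ctsc or further: the log2 change was -2.47 for Fcgr1, -1.55 for Aif1 and -1.43 for Msr1, while it was 0.11 for Cd68. As a percentage of the summed level of the 17 macrophage markers other than Lyz2, Ctsc came to 0.659, 0.669 and 0.764 in R replicates 1, 2 and 3 and to 1.58, 1.49 and 1.48 in vehicle replicates 1, 2 and 3. The groups did not overlap on this scale, but it rests on the sum of markers that moved by unequal amounts. The part of the marker levels in the fall of Ctsc was not tested. A non-coding gene on the opposite strand, Gm26522, overlaps Ctsc and had 0.429 to 2.1 FPKM in R libraries and 1.83 to 4.18 FPKM in vehicle libraries (log2 change -0.85, adjusted p = 0.17 in limma). No source used here gives the strandedness of the libraries, so the reads of the pair cannot be told apart where they overlap.

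Ctsc lies on chromosome 7 (88278085 to 88310888, GRCm38, plus strand). The 250 bases before its RefSeq start are shown because it is the gene that changed; they lie at chr7:88277835-88278084 (GRCm38.p6, plus strand). Capitals mark TTCNNGGAA, a word of the kind that STAT factors bind, which here reads on the opposite strand.
Ctsc: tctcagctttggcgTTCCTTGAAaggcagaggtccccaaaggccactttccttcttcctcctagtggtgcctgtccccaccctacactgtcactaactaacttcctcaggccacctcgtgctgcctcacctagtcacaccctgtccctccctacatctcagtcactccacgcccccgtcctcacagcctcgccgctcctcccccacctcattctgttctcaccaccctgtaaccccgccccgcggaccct
The word begins 236 bases before the start. Searched on both strands, it was held by 1 of the 30 lysosome genes with a matched promoter, a share of 3.33%, against 4.74% of 27025 genes. A second word, GAGGAAGT, of the kind that the macrophage factor PU.1 binds, begins 151 bases before the start on the opposite strand. It was found in 2 of 30 members (Ctsc and Gla), or 6.67%, against 2.79% of all genes. A match describes the letters in this window and does not show binding.

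The other cathepsins and proteases were not called. Ctss encodes cathepsin S, the cysteine protease that trims the MHC class II invariant chain. It had 1246, 691 and 733 FPKM in R replicates 1, 2 and 3 and 1358, 1213 and 1067 FPKM in vehicle replicates 1, 2 and 3. R replicate 1 lay within the vehicle range and the other R libraries lay below it. The log2 change was -0.49 (SE 0.24, 95% interval -1.05 to 0.07; adjusted p = 0.26 in limma), and -0.76 without R replicate 1 (adjusted p = 0.056 in limma). Its interval was the widest of the 36 and holds both no change and a fall of over 2-fold.

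The upstream sequence of Ctss is shown because it holds an interferon-type word close to the start, at chr3:95526536-95526785 (GRCm38.p6, plus strand). Capitals mark GAAA, any 2 bases and GAAA, the core of the interferon-stimulated response element (ISRE) that IRF and STAT complexes bind.
Ctss: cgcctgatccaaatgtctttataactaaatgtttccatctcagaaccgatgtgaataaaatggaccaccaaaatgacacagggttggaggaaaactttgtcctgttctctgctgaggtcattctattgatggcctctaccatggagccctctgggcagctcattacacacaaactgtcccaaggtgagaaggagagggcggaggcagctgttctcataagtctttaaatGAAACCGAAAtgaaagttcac
The word begins 21 bases before the start. It was found on either strand in 2 of 30 members, Ctss and Lamp1, or 6.67%, against 3.46% of all genes.

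Other cysteine proteases at high levels were Ctsb, which lay above Ctss, and Ctsz and Lgmn, which lay lower on average. Ctsb (cathepsin B, a broad endo- and exopeptidase) had 1836, 1617 and 1639 FPKM in R replicates 1, 2 and 3 and 2270, 1919 and 1886 FPKM in vehicle replicates 1, 2 and 3 (log2 change -0.25, SE 0.14; adjusted p = 0.31 in limma). Ctsz (cathepsin Z, a carboxypeptidase) had 732, 696 and 605 FPKM in R and 896, 768 and 814 FPKM in vehicle (log2 change -0.29, SE 0.12; adjusted p = 0.21 in limma). Lgmn (legumain, the asparaginyl endopeptidase that matures other cathepsins) had 325, 301 and 277 FPKM in R and 449, 358 and 343 FPKM in vehicle (log2 change -0.34, SE 0.13; adjusted p = 0.17 in limma). For each of the 3 genes all R libraries lay below all vehicle libraries, by small margins, and vehicle replicate 1 was the highest of the 6.

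Ctsd, the main aspartic protease of the lysosome, did not share that direction. It had 3013, 2279 and 2123 FPKM in R replicates 1, 2 and 3 and 2234, 2098 and 2312 FPKM in vehicle replicates 1, 2 and 3, with R replicate 1 above the rest and the other libraries intermingled (log2 change 0.14, SE 0.17; adjusted p = 0.66 in limma). The endopeptidase Ctsl had 105 to 141 FPKM in R libraries and 100.1 to 121 FPKM in vehicle libraries (log2 change 0.13, SE 0.13). Ctsa, the carboxypeptidase that protects beta-galactosidase and neuraminidase 1, had 261 to 300 FPKM in R libraries and 267 to 282 FPKM in vehicle libraries (log2 change 0.03, SE 0.09). The aminopeptidase Ctsh and the tripeptidyl peptidase Tpp1 had log2 changes of -0.11 (SE 0.14) and -0.12 (SE 0.1), and their groups overlapped. Over the 10 proteases 1 fell, 0 rose and 9 did not pass, with a median log2 change of -0.19.

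**Figure D3:**
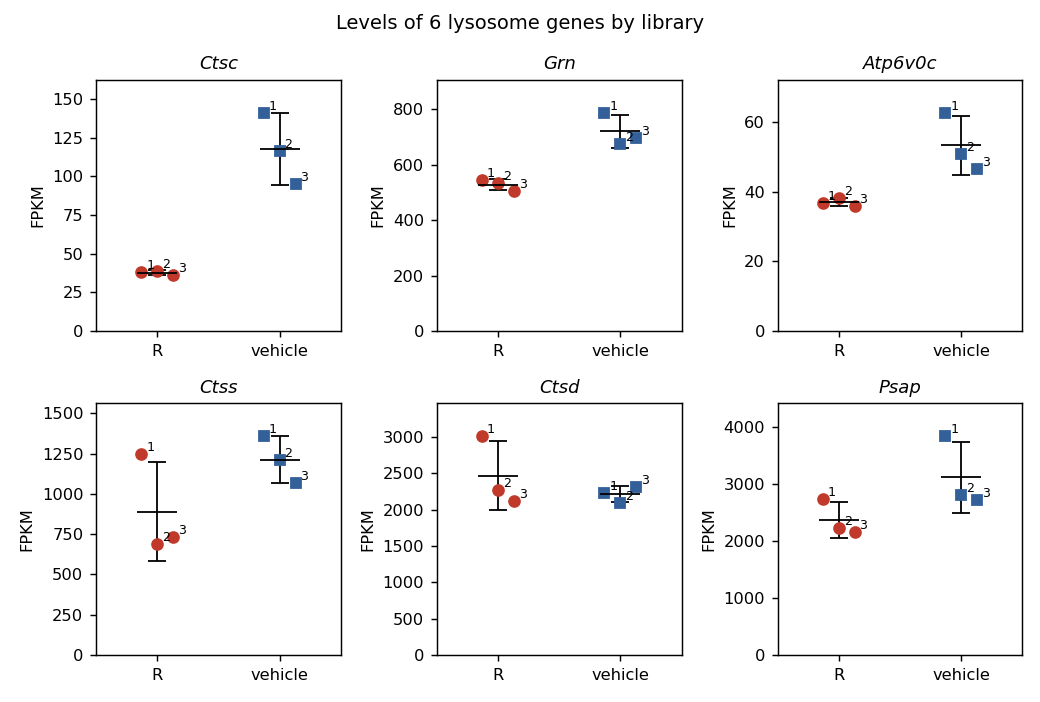
FPKM of 6 lysosome genes in each library, with replicate numbers beside the points and bars for the mean ± SD (n = 3 per group; axes start at 0). Ctsc, Grn and Atp6v0c do not overlap between the groups, and R replicate 1 lies above the other R libraries in Ctss, Ctsd and Psap.

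The 7 glycosidases, which strip sugars from glycoproteins, glycolipids and glycogen, showed 0 rises and 0 falls in limma (0 at an unadjusted p under 0.05 as well), and each had overlapping groups. Their median log2 change was -0.11, with a range of -0.22 to 0.08, and each 95% interval lay within a 1.5-fold change. Hexa, the alpha chain of beta-hexosaminidase, was the most abundant, with 485, 457 and 404 FPKM in R replicates 1, 2 and 3 and 549, 502 and 438 FPKM in vehicle replicates 1, 2 and 3 (log2 change -0.14, SE 0.13). Gusb, the beta-glucuronidase, had 112 to 127 FPKM in R libraries and 116 to 128 FPKM in vehicle libraries (log2 change -0.05, SE 0.09). Neu1, the sialidase, had the largest change of the class, with 34.1 to 39.2 FPKM in R libraries and 38 to 46 FPKM in vehicle libraries (log2 change -0.22, SE 0.1; adjusted p = 0.24 in limma). Gaa, the acid alpha-glucosidase that degrades glycogen, was the 1 with a positive value, at 67.7 to 73.3 FPKM in R libraries and 62.4 to 74.1 FPKM in vehicle libraries (log2 change 0.08, SE 0.09). The alpha-mannosidase Man2b1, the beta-galactosidase Glb1 and the alpha-galactosidase Gla had log2 changes of -0.11 (SE 0.11), -0.13 (SE 0.09) and -0.07 (SE 0.12).

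The 5 lipid-handling genes also showed 0 rises and 0 falls (0 at an unadjusted p under 0.05 in limma), with a median log2 change of -0.14. Psap, the precursor of the saposins that present sphingolipids to their hydrolases, was among the most abundant transcripts of the cultures, ranking 5 to 13 among the tested genes. It had 2735, 2226 and 2153 FPKM in R replicates 1, 2 and 3 and 3843, 2818 and 2715 FPKM in vehicle replicates 1, 2 and 3. R replicate 1 lay just inside the vehicle range and vehicle replicate 1 far above the rest (log2 change -0.39, SE 0.19, 95% interval -0.83 to 0.05; adjusted p = 0.26 in limma). Npc2 and Npc1, which pass cholesterol on and out of the lysosome, had 194 to 249 and 16.8 to 24.2 FPKM in R libraries and 236 to 266 and 22.4 to 26.2 FPKM in vehicle (log2 changes -0.21, SE 0.12, and -0.14, SE 0.15). Lipa, the acid lipase that frees cholesterol from its esters, had 377 to 484 FPKM in R libraries and 414 to 466 FPKM in vehicle libraries (log2 change 0.01, SE 0.12). The ceramidase Asah1 had 94.6 to 106 FPKM in R libraries and 101 to 115 FPKM in vehicle libraries (log2 change -0.08, SE 0.09).

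Of the 6 membrane proteins none rose or fell past the threshold, and 1, Lamp2, had an unadjusted p under 0.05 in limma. The class split, with 3 negative and 3 positive values. Lamp1, a glycoprotein of the limiting membrane and the most abundant of these 6, had 615, 618 and 601 FPKM in R replicates 1, 2 and 3 and 796, 661 and 715 FPKM in vehicle replicates 1, 2 and 3 (log2 change -0.24, SE 0.11; adjusted p = 0.24 in limma). Lamp2, which is also a receptor of chaperone-mediated autophagy, had 54.8, 47.6 and 57.2 FPKM in R and 71.6, 65.4 and 61.8 FPKM in vehicle (log2 change -0.31, SE 0.1; adjusted p = 0.12 in limma). In both genes all R libraries lay below all vehicle libraries. Cd63, a tetraspanin of lysosomes and exosomes, lay the other way, at 178 to 217 FPKM in R libraries and 174 to 199 FPKM in vehicle libraries (log2 change 0.13, SE 0.11), with overlapping groups. Scarb2, the carrier of beta-glucocerebrosidase, and Mcoln1, the calcium channel TRPML1, had log2 changes of 0.09 (SE 0.13) and 0.08 (SE 0.08). Cln3, whose loss causes juvenile neuronal ceroid lipofuscinosis in humans, had 10.7 to 15.2 FPKM in R libraries and 13.7 to 17.3 FPKM in vehicle libraries (log2 change -0.23, SE 0.14). The gene Apobr overlaps Cln3 on the opposite strand and stood higher, at 22.8 to 32.9 FPKM over the libraries. With the strandedness unknown, the Cln3 values may hold reads of Apobr, and their share was not tested.

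The V-ATPase subunits were the class closest to 0, with a median log2 change of 0.04, and 1 subunit stood off. Atp6v0c encodes the proteolipid c subunit, which forms the rotor ring in the membrane. It had 36.8, 38.2 and 35.9 FPKM in R replicates 1, 2 and 3 and 62.7, 50.8 and 46.5 FPKM in vehicle replicates 1, 2 and 3. The groups did not overlap, and the R libraries were closer to each other than the vehicle libraries. The log2 change was -0.51 (SE 0.12, 95% interval -0.79 to -0.23), and its adjusted p of 0.0501 in limma lay just outside the threshold. It passed without vehicle replicate 3 (adjusted p = 0.035), with quantile normalization (adjusted p = 0.049) and with a minimum of 5 FPKM (adjusted p = 0.041), and its adjusted p without other libraries reached 0.13 in limma. The other 5 subunits had log2 changes of -0.16 to 0.08: the ring-side Atp6v0d1 had 117 to 138 FPKM in R libraries and 121 to 129 FPKM in vehicle libraries, and the catalytic Atp6v1a 76.4 to 104 FPKM in R libraries and 87.1 to 94 FPKM in vehicle libraries. The values for Atp6v1b2, Atp6v1h and Atp6v0a1 were -0.16 (SE 0.11), 0.06 (SE 0.09) and 0.08 (SE 0.09).

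Grn encodes progranulin, a secreted and lysosomal glycoprotein that is processed into granulins and is abundant in macrophages. It had 543, 534 and 505 FPKM in R replicates 1, 2 and 3 and 787, 673 and 698 FPKM in vehicle replicates 1, 2 and 3. All R libraries lay below all vehicle libraries, with 527 ± 20.2 FPKM in R and 719 ± 60.1 FPKM in vehicle (SD, n = 3 each). The log2 change was -0.44 (SE 0.11, 95% interval -0.7 to -0.19; adjusted p = 0.054 in limma). It passed with quantile normalization (adjusted p = 0.024) and with a minimum of 5 FPKM (adjusted p = 0.045), and its adjusted p in limma was 0.094 to 0.22 when a library was left out. Beside Ctsc, Grn and Atp6v0c had the smallest p-values of the 36. The mean macrophage sum lay lower in R too, but R replicate 1 (16600 FPKM) lay above vehicle replicate 3 (16300 FPKM). Lyz2 made up the largest part of that sum, with a mean of 9453 FPKM in R and 11068 FPKM in vehicle. The sum of the other macrophage markers was 5839, 5852 and 4714 FPKM in R replicates 1, 2 and 3. In vehicle replicates 1, 2 and 3 it was 8941, 7804 and 6428 FPKM, and without Lyz2 the groups did not overlap. The part of the marker levels in the values of Grn, Lgmn, Ctsb and Lamp1 was not tested.

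**Figure D4:**
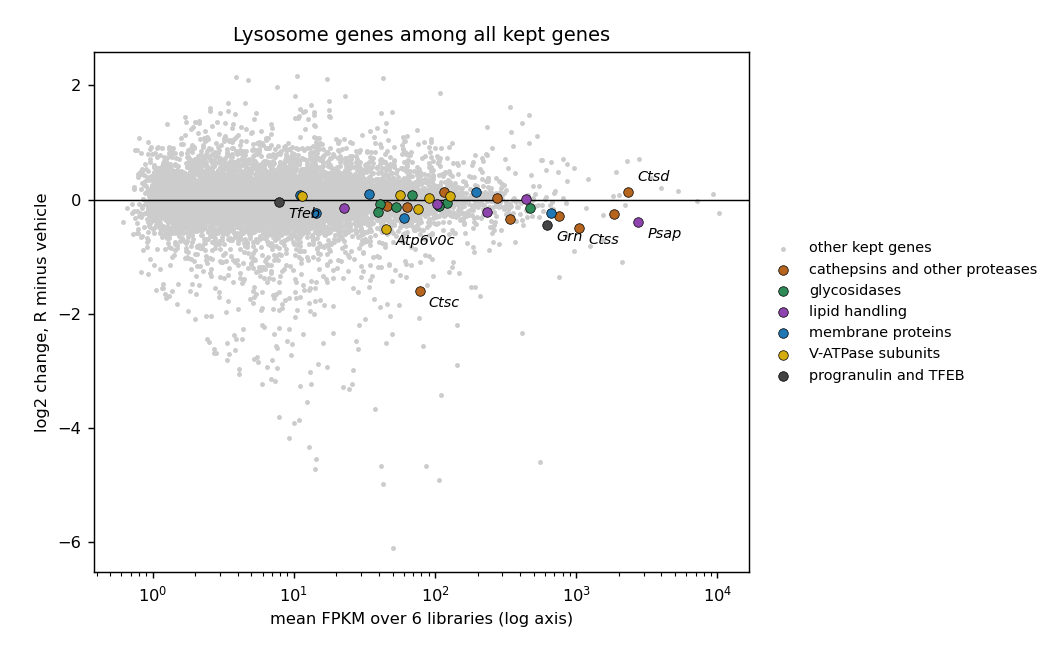
Mean FPKM over the 6 libraries (log axis) against the log2 change (R minus vehicle) for the 11862 tested genes in grey, with the 36 lysosome genes coloured by class. Most lysosome genes lie to the right of the cloud and near 0, and Ctsc lies below at -1.59.

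Tfeb itself was the lowest of the 36, with 8.36, 7.78 and 6.99 FPKM in R replicates 1, 2 and 3 and 8.95, 8.42 and 6.5 FPKM in vehicle replicates 1, 2 and 3 (log2 change -0.03, SE 0.13, 95% interval -0.34 to 0.27; adjusted p = 0.91 in limma). TFEB binds an E-box, CACGTG, best when it is flanked to TCACGTGA, the core of the CLEAR element of lysosome genes. Promoters were matched for 30 of the 36 genes, the others being Ctsb, Ctsh, Npc1, Asah1, Atp6v1b2 and Atp6v1h. In the 250 bases before a RefSeq start, on either strand, CACGTG was found in 11 of the 30, or 36.7%, against 6.86% of 27025 genes. The longer TCACGTGA, which contains it, was found in 6 of the 30, or 20%, against 0.907% of all genes. Among 110 further lysosome-related genes with a matched promoter (from the lists described below), CACGTG was found in 20% and TCACGTGA in 4.55%. These stretches (GRCm38.p6, 5′ to 3′ on the strand of the gene, with TCACGTGA in capitals) are shown because they are the letters that these lysosome genes share.
Ctsa, chr2:164833750-164833772, plus strand: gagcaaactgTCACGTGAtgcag
Cln3, chr7:126583341-126583368, minus strand: acgggtactgTCACGTGAcccccaacct
Ctsd, chr7:142387909-142387936, minus strand: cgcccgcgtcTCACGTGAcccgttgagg
Mcoln1, chr8:3500463-3500490, plus strand: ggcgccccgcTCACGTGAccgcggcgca
Atp6v1a, chr16:44139374-44139401, minus strand: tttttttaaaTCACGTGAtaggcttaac
Gla, chrX:134601216-134601243, minus strand: aagcgattgaTCACGTGAgcatctacgt
Gla, chrX:134601183-134601210, minus strand: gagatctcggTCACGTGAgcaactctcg

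The 6 genes with TCACGTGA had log2 changes of -0.23 to 0.14, with a median of 0.02, and the other 24 with a promoter had a median of -0.14. None of the 6 was called. This is a description of the matched genes, with no test. The upstream sequence of Lamp1, at chr8:13158911-13159160 (plus strand), is shown because it carries 4 E-boxes (CACGTG, in capitals) close together, the first beginning 61 and the last 15 bases before the start.
Lamp1: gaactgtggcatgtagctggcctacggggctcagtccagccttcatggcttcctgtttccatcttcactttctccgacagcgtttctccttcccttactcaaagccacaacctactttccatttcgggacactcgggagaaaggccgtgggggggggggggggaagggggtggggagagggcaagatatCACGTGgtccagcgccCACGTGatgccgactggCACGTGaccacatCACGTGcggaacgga

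The rest of the pathway was read from 8 further lists of lysosome-related genes, of which 122 genes were high enough to be tested. Of these 122, 4 were lower and 3 higher in R, or 3.28% and 2.46%, against 4.43% and 2.39% of all tested genes, and their median log2 change was -0.00. The other 115 did not pass the threshold. At an unadjusted p under 0.05 in limma stood 27 of the 122, against 24% of all tested genes. By list these included 4 of 7 other proteases, 7 of 28 other hydrolases and 6 of 24 other membrane proteins. They also included 3 of 20 genes for the relatives of TFEB and their control, and 5 of 16 autophagy genes.

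Among the other hydrolases, with a median log2 change of -0.01 over 28 genes, 1 fell and 1 rose. Ifi30 (GILT), the interferon-inducible thiol reductase that unfolds antigens, had 109, 118 and 95.7 FPKM in R replicates 1, 2 and 3 and 174, 148 and 146 FPKM in vehicle replicates 1, 2 and 3 (log2 change -0.53, SE 0.12; adjusted p = 0.04 in limma). Smpd1, the acid sphingomyelinase, had 22.9, 27 and 23.4 FPKM in R and 15.5, 18.7 and 16.5 FPKM in vehicle (log2 change 0.51, SE 0.1; adjusted p = 0.035 in limma). In both genes the groups did not overlap. Of 7 other proteases the cysteine protease Ctsf rose, with 19.1, 22.3 and 19.9 FPKM in R and 13.9, 16.2 and 15.1 FPKM in vehicle (log2 change 0.42, SE 0.1; adjusted p = 0.047 in limma). The carboxypeptidase Scpep1 had 138 to 144 FPKM in R libraries and 170 to 187 FPKM in vehicle libraries (log2 change -0.32, SE 0.08; adjusted p = 0.07 in limma).

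Of 24 other membrane proteins 2 fell and 0 rose. Slc15a3, a peptide and histidine transporter of the endolysosome, had 75.4, 50.5 and 57.3 FPKM in R replicates 1, 2 and 3 and 134, 115 and 113 FPKM in vehicle replicates 1, 2 and 3 (log2 change -0.99, SE 0.16; adjusted p = 0.014 in limma). Mcoln2, a paralogue of Mcoln1, had 5.36, 4.8 and 4.44 FPKM in R and 9.84, 7.03 and 7.16 FPKM in vehicle (log2 change -0.61, SE 0.14; adjusted p = 0.047 in limma), while Mcoln1 itself had a value of 0.08. Clcn7, the chloride and proton exchanger, had 33.9 to 38.6 FPKM in R libraries and 44.7 to 56.6 FPKM in vehicle libraries (log2 change -0.43; adjusted p = 0.07 in limma). Tpcn1 lay the other way, at 8.75 to 10.6 FPKM in R libraries and 7.22 to 7.84 FPKM in vehicle libraries (log2 change 0.33, adjusted p = 0.088 in limma). Of the 24 log2 changes 15 were negative and 9 positive. Of the 12 other V-ATPase genes tested, 0 rose and 0 fell (1 at an unadjusted p under 0.05 in limma, the a3 subunit Tcirg1, with a log2 change of -0.31). Their median log2 change was 0.07.

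Among 20 genes for the relatives of TFEB and their control, Tfec fell and 0 rose. Tfec, the family member found mainly in myeloid cells, had 2.11, 2.16 and 1.97 FPKM in R replicates 1, 2 and 3 and 5.78, 3.71 and 3.55 FPKM in vehicle replicates 1, 2 and 3 (log2 change -0.77, SE 0.16; adjusted p = 0.038 in limma). Tfe3 and Mitf, named as the nearest relatives of Tfeb and not by their p-values, had log2 changes of -0.2 (SE 0.1) and -0.33 (SE 0.19) with overlapping groups. Rragd, a Rag GTPase that recruits mTORC1 to lysosomes, had 5.02 to 8.04 FPKM in R libraries and 3.58 to 4.77 FPKM in vehicle libraries (log2 change 0.6; adjusted p = 0.093 in limma) and was called without R replicate 2. Of 13 genes for the delivery of enzymes to lysosomes 0 passed (1 at an unadjusted p under 0.05 in limma). That one, the sorting receptor Sort1, had 14.2, 8.79 and 13.8 FPKM in R and 7.17, 7.14 and 7.06 FPKM in vehicle (log2 change 0.68, SE 0.17; adjusted p = 0.061 in limma) and was called without R replicate 2 and with a minimum of 5 FPKM. The mannose 6-phosphate receptor M6pr had a log2 change of -0.21 (SE 0.1). Of the cystatins, which inhibit cysteine cathepsins, Cst3 and Cstb were tested, with log2 changes of 0.02 (SE 0.14) and -0.13 (SE 0.12).

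Of 16 autophagy genes, whose products bring cargo to the lysosome, 1 rose and 0 fell, and the median log2 change was 0.12. All R libraries lay above all vehicle libraries for 7 of the 16 and below them for 0, against backgrounds of 13.9% and 15.5%. Map1lc3a, an LC3 protein of the autophagosome membrane, had 52.2, 55.6 and 47.7 FPKM in R replicates 1, 2 and 3 and 26.3, 32.3 and 35.9 FPKM in vehicle replicates 1, 2 and 3 (log2 change 0.71, SE 0.13; adjusted p = 0.023 in limma). Sqstm1, the cargo receptor p62, had 301, 265 and 243 FPKM in R and 199.5, 204 and 215 FPKM in vehicle (log2 change 0.38, SE 0.11; adjusted p = 0.081 in limma). Wipi1 and Optn had log2 changes of 0.39 and 0.36 (adjusted p = 0.098 and 0.12 in limma). Uvrag lay the other way (log2 change -0.25, SE 0.1; adjusted p = 0.21 in limma). In all, the log2 change was positive in 13 of the 16 and negative in 3.

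These 7 further calls were less firm than that of Ctsc. Those of Ctsf, Smpd1, Ifi30 and Mcoln2 ended whichever library was left out (adjusted p up to 0.18, 0.14, 0.15 and 0.12 in limma), and that of Tfec (adjusted p up to 0.096 in limma) held when vehicle replicate 3 was dropped but with no other omission. The call of Map1lc3a ended without R replicate 1 or 2 or vehicle replicate 1 or 2 (adjusted p up to 0.071 in limma), and that of Slc15a3 when R replicate 3 was dropped (adjusted p = 0.051) and when vehicle replicate 1 was (adjusted p = 0.055). None of the 7 held when no minimum level was required (adjusted p = 0.055 to 0.12 in limma).

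**Figure D5:**
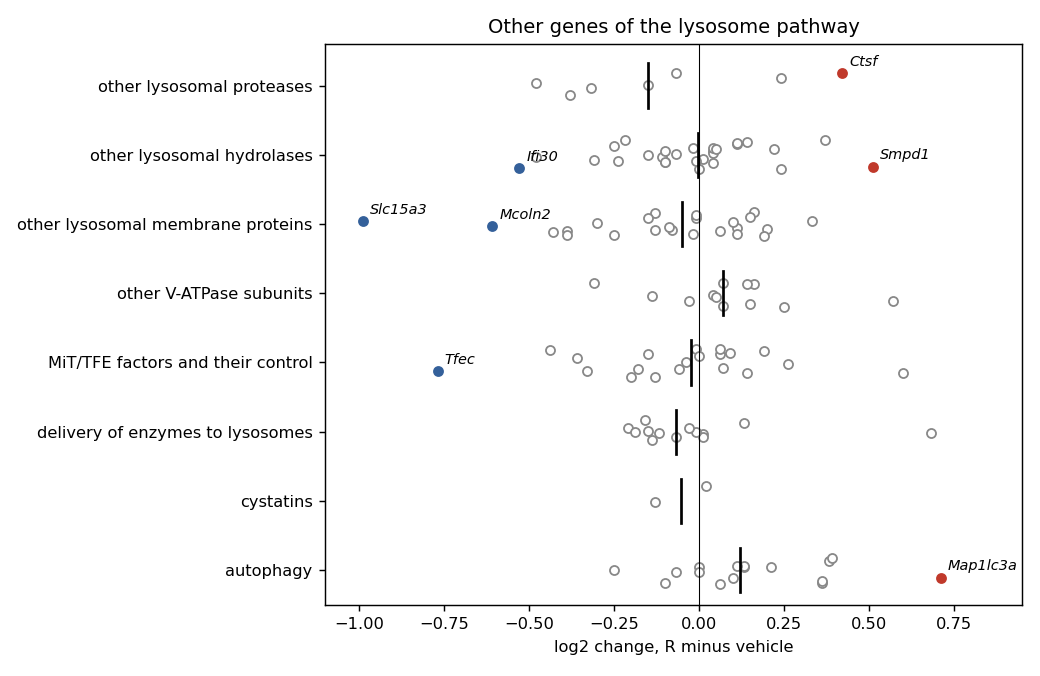
The log2 change (R minus vehicle) of the 122 tested genes in 8 further lists of lysosome-related genes, with list medians as vertical bars. Filled points passed the adjusted threshold: Ifi30, Slc15a3, Mcoln2 and Tfec lower in R, and Ctsf, Smpd1 and Map1lc3a higher.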

How the data were processed

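One table of FPKM per gene and library was used, as the authors deposited it; its unit is per the file headers. The submitters' processing notes name GRCm38, mm10 and edgeR version 3.18.1, with no role for the tool. The sources used here do not give the aligner, counter, annotation or strandedness. Symbols and exon lengths came from GENCODE M21, which matched 49302 of 49328 identifiers; promoters came from RefSeq (GRCm38.p6). Titles of the samples gave the groups. The model was limma (version 3.58.1, in R 4.3.3) on log2(FPKM + 1), with the group as the only term and a trend in the prior variance. The fit was tested on simulated data. Depth was estimated from low values, which at a tolerance of 0.02 reads were whole multiples of 1 read for 98.3% to 98.4% of values of up to 20 reads. The log scale understates changes of genes with low values. Same-numbered libraries did not deviate together, so the main fit has no block. The 36 genes and the further lists were chosen with earlier results of these data known. All 36 are accounted for; of the further lists, genes past the threshold and up to 4 others with small p-values are named. Genes that overlap another expressed gene (12 of the 36, with a partner of at least 1 FPKM in a library) may share reads with it. Alternatives were other pseudocounts (0.5 and 5), filters (none, and 5 FPKM), scalings, a replicate block and leaving out each library.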

Additional observations from a re-analysis of the deposited data

How the results depend on the processing

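The call of Ctsc held in each of the 13 alternatives, and 0 lysosome genes were called higher in any. The count called lower was 3 with the stricter filter and with quantile normalization (Ctsc, Grn and Atp6v0c) and 1 to 2 when a library was left out. Without a filter on low values 65 genes of all were higher and 279 lower in R, and of the further lists 0 and 0. Leaving out a library gave 63 to 352 higher and 272 to 527 lower genes of all, and 0 to 2 higher and 0 to 3 lower of the further lists. With a pseudocount of 5 and with equal medians 2 of the further lists were lower. The replicate block gave 299 higher and 457 lower genes, with Ctsc called and 3 higher and 3 lower of the further lists; the calls of Ctsf and Ifi30 ended (adjusted p = 0.057 and 0.051 in limma) and Rragd gained one. Without R replicate 2 Rragd and Sort1 gained a call, with the stricter filter Sort1, and without vehicle replicate 3 Prcp. Same-numbered libraries correlated at 0.14, -0.01 and -0.03 in their deviations. Of 36 genes, 28 kept their sign throughout. Tfeb was 0.00 with quantile normalization. When a library was left out, the log2 change ranged from -0.03 to 0.07 for Ctsa, -0.01 to 0.24 for Ctsd, -0.20 to 0.01 for Gla, -0.23 to 0.02 for Npc1, -0.06 to 0.12 for Lipa, -0.03 to 0.22 for Scarb2, -0.07 to 0.15 for Atp6v1a and -0.16 to 0.05 for Tfeb; the cause was not tested. Depth limits the untested genes, some of whose values stand for 2 reads, more than the 36, with at least 716 reads a value.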

Other observations

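Of the further lysosome-related genes, 15 were too low to be tested, and 11 of them had a mean of at least 0.1 FPKM. Among these 11 all R libraries lay below all vehicle libraries for 2 and above them for 2, against 8.69% and 8.71% of 5638 untested genes with such a mean. The 4 were chosen after their values were seen. Cst7 (cystatin F), an inhibitor that acts on cathepsin C within immune cells, had 0.14, 0.169 and 0.112 FPKM in R replicates 1, 2 and 3 and 1.31, 0.65 and 0.355 FPKM in vehicle replicates 1, 2 and 3. Plbd1, a phospholipase-like protein of lysosomes, had 0.105, 0.084 and 0.042 FPKM in R and 1.2, 1.4 and 0.437 FPKM in vehicle. In the other direction, Cst6 (cystatin E/M) had 0.85, 1.93 and 1.33 FPKM in R and 0.326, 0.284 and 0.493 FPKM in vehicle, and the V-ATPase gene Atp6v0e2 had 1.97, 1.33 and 0.627 FPKM in R and 0.492, 0.336 and 0.441 FPKM in vehicle. The lowest of these values stand for 2 reads.
The ratio of Ctsl to Ctss in FPKM, 2 endopeptidases that trim the invariant chain in different antigen-presenting cells, was 0.113, 0.166 and 0.144 in R replicates 1, 2 and 3 and 0.0795, 0.0825 and 0.113 in vehicle replicates 1, 2 and 3. R replicate 1 and vehicle replicate 3 had the same rounded ratio, and the other R libraries lay above all vehicle libraries.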
